A study of Mus musculus with 12 samples.

Results

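The genes described here encode the subunits of the receptors for glutamate and GABA, the main fast excitatory transmitter and a main inhibitory transmitter of the spinal cord. They were chosen by gene symbol, and a gene was kept at a mean of at least 0.1 TPM (transcript abundance scaled by transcript length and library total) over all mice. By symbol 47 of the 38924 measured genes matched, and 42 were kept. RNA was sequenced from the whole spinal cord of 12 mice aged 8 weeks, all on a mixed B6J;CAST background. Of these, 6 were wild type (WT) and 6 carried P278KY, a mutant allele of the glycyl-tRNA synthetase gene Gars, in the heterozygous state. Each genotype had 3 females and 3 males: mice 1, 2 and 10 were the WT females, 5, 11 and 12 the WT males, 3, 4 and 9 the mutant females and 6, 7 and 8 the mutant males. The question of the study was which transcripts differ between WT and mutant adult cord, and here it is asked receptor class by receptor class. The mutant mice keep 1 WT copy of Gars, and the cord was sampled whole, with its cell types mixed.

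Glutamate opens the cation channels of the AMPA, kainate and NMDA families, each built from several subunits, and acts on the metabotropic receptors (mGlu), which signal through G proteins. GABA opens the chloride channels of the GABA-A class and acts on the G protein-coupled GABA-B receptor. Subunit choice sets what such a receptor does. GluA2, from the edited transcript of Gria2, keeps calcium out of AMPA receptors, GluN2 subunits set how long NMDA receptor currents last, GluN3 subunits lower their calcium entry, and alpha and gamma subunits set where GABA-A receptors sit and how benzodiazepines act on them.

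The 5 genes that matched by symbol but were dropped are subunits at or near no expression. Gabra6, the alpha subunit of cerebellar granule cells, had 0 counts in every library. Gabrr1, Gabrr3 and Grm6, a set known from the retina, had 0 to 4, 0 to 10 and 0 to 5 counts per library. Gabrp had 44 counts in WT female 1, 1 count in P278KY male 7 and 0 in the other mice, a mean of 0.0733 TPM. All 42 kept genes passed the filter on low counts and were among the 17980 genes tested.

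The libraries held 26982140 to 39339999 expected counts, and some differed in RNA of tissues next to the cord. Summed skeletal muscle markers (12 of 12 tested) were at 8646 and 2038 CPM (reads scaled to a common library size, with no correction for length) in WT females 1 and 2 and at 3273 and 1241 CPM in P278KY females 3 and 4, against 96.3 to 291 CPM in the other 8 mice. Scn10a, a sodium channel of sensory ganglion neurons, was at 9.50, 7.21 and 17.6 CPM in mice 10, 11 and 7, against 0 to 0.301 CPM elsewhere. Summed markers of neurons in general spanned 5377 to 6511 CPM over WT mice and 5765 to 6110 CPM over mutants, and 0 of 10 were called. The overlap came from WT female 1, while the other WT mice, at 6313 CPM or more, lay above all mutants. Of the 10 genes 7 had a log2 change below 0, and the median was -0.037. Summed motor neuron markers spanned 4610 to 6794 CPM over WT mice and 3814 to 4071 CPM over mutants, with no overlap, and 10 of 15 fell. Most of that sum came from Nefl, Nefm and Nefh. In WT female 2 they were at 2231, 2483 and 1396 of 6613 CPM, and in P278KY female 3 at 1381, 1367 and 746 of 3814 CPM. By gene, 14 of the 15 log2 changes were below 0, but only 7 of the 15 genes did not overlap between the genotypes (3.73% of all genes). Among those that overlapped were Esrrg, at 68.1 to 80.8 CPM over WT mice and 70.1 to 79.1 CPM over mutants, and Chat. Chat was at 14.9 to 27.2 CPM over WT mice and 12.9 to 16.0 CPM over mutants. In RNA of whole tissue, fewer cells of a type and less RNA in each cell cannot be told apart. The part of these differences in the receptor results was not tested, other than by leaving the mice out.

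Promoter sequence is shown for 4 genes on which the results turn: Grin3b and Gabrr2, with the largest fold differences between the genotypes among the called receptor genes, and Gria4 and Gria2, AMPA subunit genes that changed in opposite directions. Each run is the 250 bases before the gene's start in RefSeq (GRCm38.p6), read 5′ to 3′ on the strand of the gene, with each CpG in capitals.
Grin3b, chr10:79970474-79970723, plus strand: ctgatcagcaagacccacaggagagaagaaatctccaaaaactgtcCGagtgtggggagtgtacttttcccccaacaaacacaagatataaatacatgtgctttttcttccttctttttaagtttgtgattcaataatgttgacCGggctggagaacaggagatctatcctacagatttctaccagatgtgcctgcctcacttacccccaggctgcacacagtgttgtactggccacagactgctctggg
Gabrr2, chr4:33062862-33063111, plus strand: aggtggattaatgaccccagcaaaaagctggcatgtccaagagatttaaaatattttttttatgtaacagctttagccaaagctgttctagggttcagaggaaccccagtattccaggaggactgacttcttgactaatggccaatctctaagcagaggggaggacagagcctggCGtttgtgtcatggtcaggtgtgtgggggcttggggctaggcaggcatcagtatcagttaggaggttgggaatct
Gria4, chr9:4796235-4796484, minus strand: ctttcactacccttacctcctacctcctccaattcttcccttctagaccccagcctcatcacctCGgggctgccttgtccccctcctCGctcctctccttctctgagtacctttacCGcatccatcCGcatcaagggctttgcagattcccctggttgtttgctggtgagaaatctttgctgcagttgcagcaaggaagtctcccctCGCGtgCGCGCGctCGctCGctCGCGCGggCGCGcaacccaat
Gria2, chr3:80802836-80803085, minus strand: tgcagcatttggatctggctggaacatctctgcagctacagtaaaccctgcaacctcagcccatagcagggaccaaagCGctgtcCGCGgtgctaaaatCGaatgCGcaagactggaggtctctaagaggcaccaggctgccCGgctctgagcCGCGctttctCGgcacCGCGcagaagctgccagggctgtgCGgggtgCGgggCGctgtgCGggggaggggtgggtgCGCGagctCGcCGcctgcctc
The RefSeq starts of Grin3b and Gabrr2 lie a short way inside the gene spans given for them in the results. The letters CG, counted once for both strands since they read the same on each, occurred 2 times before Grin3b and 1 time before Gabrr2, against 16 times before Gria4 and 19 times before Gria2. Of all 32851 promoter windows of that length 18.8% held fewer CpGs than Grin3b, 7.87% fewer than Gabrr2, 74.6% fewer than Gria4 and 80.3% fewer than Gria2. The median was 6 over all windows and 9, with a range of 0 to 42, over the 34 windows that matched 27 of the 42 receptor genes. These counts are a description, and no binding or methylation was measured.

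Levels per transcript length spanned more than 2 orders of magnitude. Gabbr1, the GABA-B subunit that binds GABA, was the most abundant at a mean of 336 TPM over the 12 mice, ahead of Grin1, the obligatory NMDA subunit, at 189 TPM. Others at the high end were Gria4 at 78.0, Gabra3 at 62.6, Gria1 at 55.9, Gabbr2, the partner that couples Gabbr1 to G proteins, at 54.4, and Grik5, a high-affinity kainate subunit, at 53.1 TPM. At the low end were Gabrd, a subunit of receptors outside synapses, at 0.607 TPM, the rho subunit gene Gabrr2 at 1.51, Gabre at 1.57 and Grm2, a presynaptic receptor, at 2.25 TPM. Summed over genes, glutamate receptors made 755 TPM and GABA receptors 729 TPM. Within classes, Gria4 led the AMPA subunits, Grik5 the kainate, Grin2d the GluN2 and Gabra3 the alpha subunits.

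**Figure D1:**
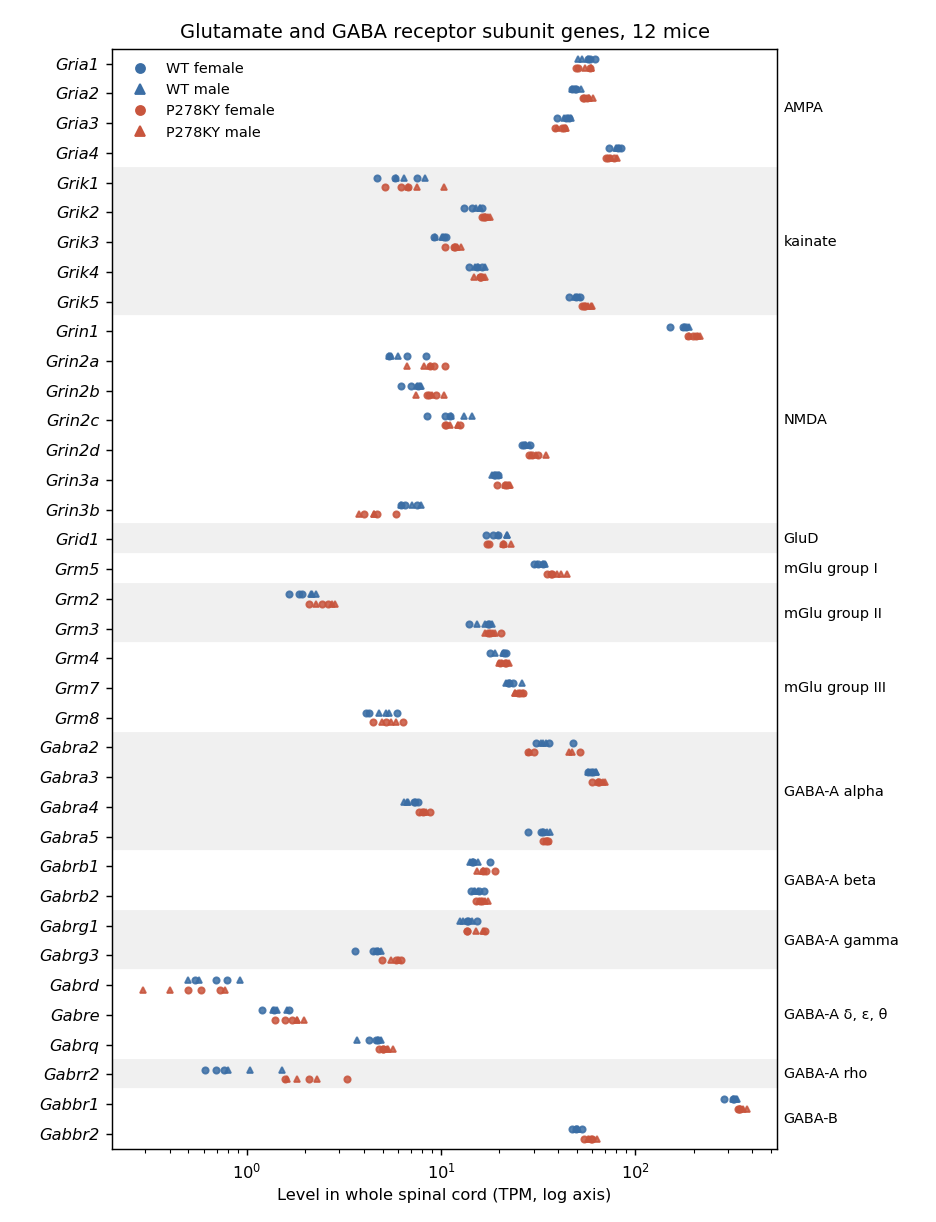
TPM (log axis) of 37 of the 42 receptor subunit genes in each of the 12 mice, with genes in rows by receptor class, WT mice in blue and P278KY mice in red, circles for females and triangles for males. Gabbr1 and Grin1 were the highest and Gabrd the lowest.

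Between the genotypes 10 of the 42 receptor genes passed the threshold, an adjusted p under 0.05 by edgeR's quasi-likelihood test with Benjamini-Hochberg adjustment over all genes. Of these, 7 rose in P278KY cord (Gabrr2, Grin2a, Grin2b, Grik3, Gabbr2, Gria2 and Grik5) and 3 fell (Grin3b, Gria4 and Gria3). That is 23.8% of the receptor genes, against 956 of 17980 genes tested (5.32%), with 2.36% of all genes higher and 2.95% lower. The differences were mostly small, with fitted log2 changes between -0.18 and 0.42 for the called genes other than Grin3b and Gabrr2. Taken without regard to the threshold, 32 of the 42 had a log2 change above 0, against 48.9% of all genes tested, and the median log2 change was 0.07, against -0.003 over all genes. On log2(TPM + 1) values that median was 0.14, where the median of all genes was 0.062 and 70.3% of them were above 0. Results on TPM values below carry this shift. CPM values of the 6 WT and 6 P278KY mice did not overlap for 4 receptor genes (Gabrr2, Gabbr2 and Grin2b higher, Grin3b lower), against 3.73% of all genes. Other tools called more genes: the DESeq2 Wald test passed 13 of the 42 (10.1% of all genes), limma voom 12 (8.16%) and limma on log2(TPM + 1) 13 (8.93%).

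**Figure D2:**
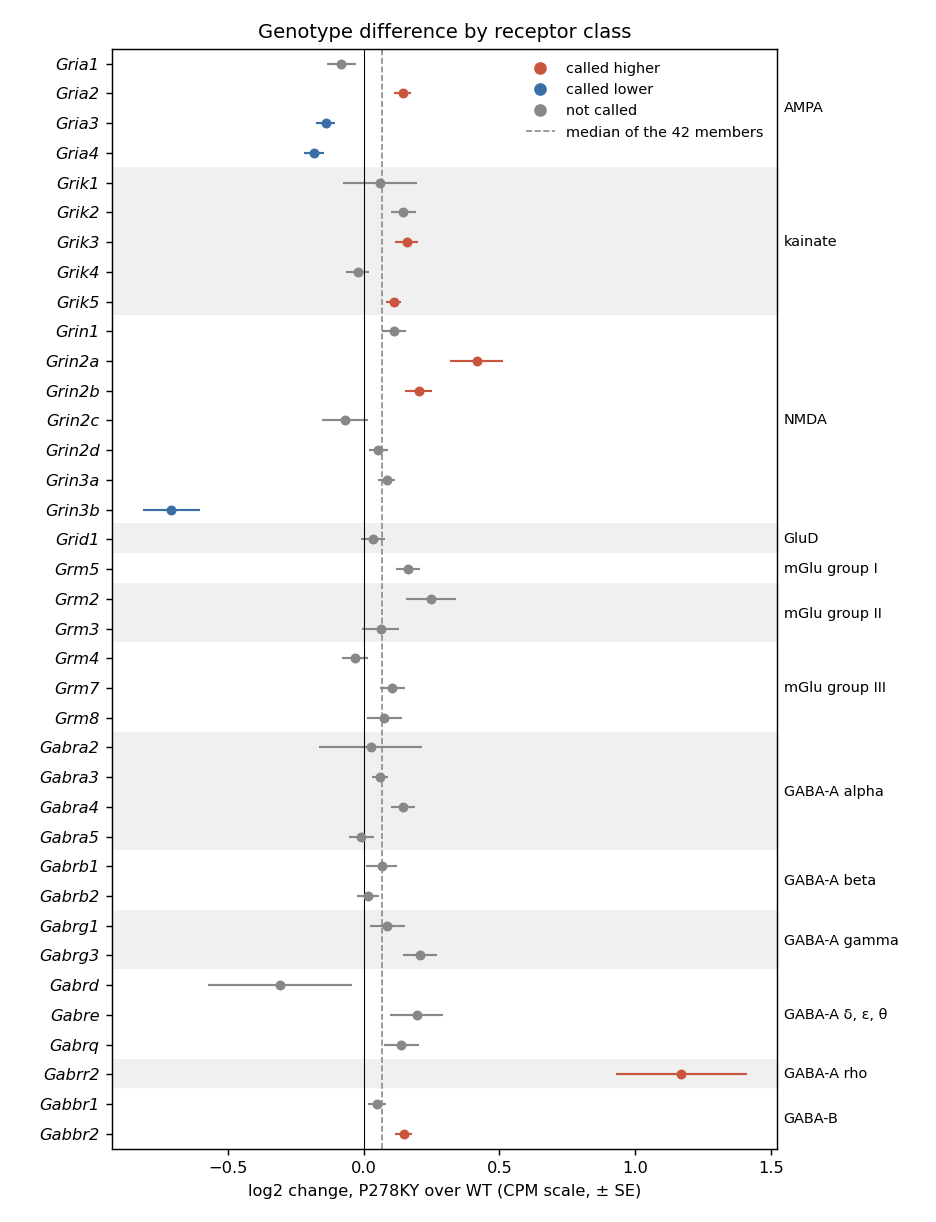
Fitted log2 change (P278KY over WT) with its SE for 37 of the 42 receptor subunit genes by class, with a dashed line at the median of all 42, 0.07. Red and blue mark the 10 genes past the threshold, 7 above 0 and 3 below 0, and grey those that did not pass.

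Among ionotropic glutamate receptor genes 5 of 18 rose and 3 fell, with none of the 7 mGlu receptor genes called. GABA receptor genes had 2 of 17 called, both higher: Gabrr2, from the GABA-A genes (1 of 15), and Gabbr2. By class the calls were 1 higher and 2 lower of 4 AMPA genes, 2 higher of 5 kainate genes, 2 higher and 1 lower of 7 NMDA genes, 1 higher of 1 rho gene and 1 higher of 2 GABA-B genes. None passed in the delta glutamate class (2 genes), mGlu groups I, II and III (2, 2 and 3 genes) or the alpha, beta, gamma and delta, epsilon and theta classes of GABA-A (5, 3, 3 and 3 genes).

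The AMPA receptor genes moved in opposite directions. Gria4 (ENSMUSG00000025892, chromosome 9, 4417896 to 4796234, minus strand, GRCm38), the most abundant AMPA subunit gene here, had 169, 194 and 199 CPM as its lowest, median and highest values over the WT mice and 163, 166 and 176 CPM over the mutants. WT female 1 lay among the mutants, and the other 5 WT mice, at 190 CPM or more, lay above all 6. The mean fell from 190 ± 10.7 to 168 ± 4.81 CPM (SD, n = 6 each, edgeR log2 change -0.18, SE 0.04, adjusted p = 0.0127). The change in Gria3 (chromosome X, 41400854 to 41678601, plus strand), another AMPA subunit gene, was of the same sign. Its values were 102, 113 and 117 CPM over the WT mice and 96.7, 103 and 106 CPM over the mutants. The ranges overlapped through WT female 1, the lowest WT mouse. The mean fell from 112 ± 5.64 to 102 ± 3.43 CPM (log2 change -0.14, SE 0.03, edgeR adjusted p = 0.0376).

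Gria2 (ENSMUSG00000033981, chromosome 3, 80681450 to 80802835, minus strand) rose. Its values were 166, 177 and 190 CPM over the WT mice and 188, 194 and 210 CPM over the mutants, where only WT male 5 reached the mutant range. The mean went from 177 ± 8.07 to 195 ± 7.83 CPM (log2 change 0.14, SE 0.03, edgeR adjusted p = 0.0216). Gria1, the 4th AMPA subunit gene, did not pass, at 159 ± 9.99 and 150 ± 10.7 CPM (log2 change -0.08, SE 0.05, edgeR adjusted p = 0.428). As a share of summed AMPA subunit TPM, Gria2 made up 20.1% to 22.5% in WT mice and 24.2% to 25.8% in P278KY mice, with no overlap (means 21.3% ± 0.925 and 24.8% ± 0.540, SD, n = 6). This share uses the same reads as the test of Gria2 and is no separate evidence. The Gria3 and Gria4 shares overlapped between the genotypes, at 16.8% to 20.1% and 31.4% to 36.3% over the 12 mice. On log2(TPM + 1) values Gria2 kept its call (log2 change 0.22, limma adjusted p = 0.00537) and Gria4 (-0.09, 0.173) and Gria3 (-0.07, 0.349) did not. The median of all genes on that scale was 0.062.

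**Figure D3:**
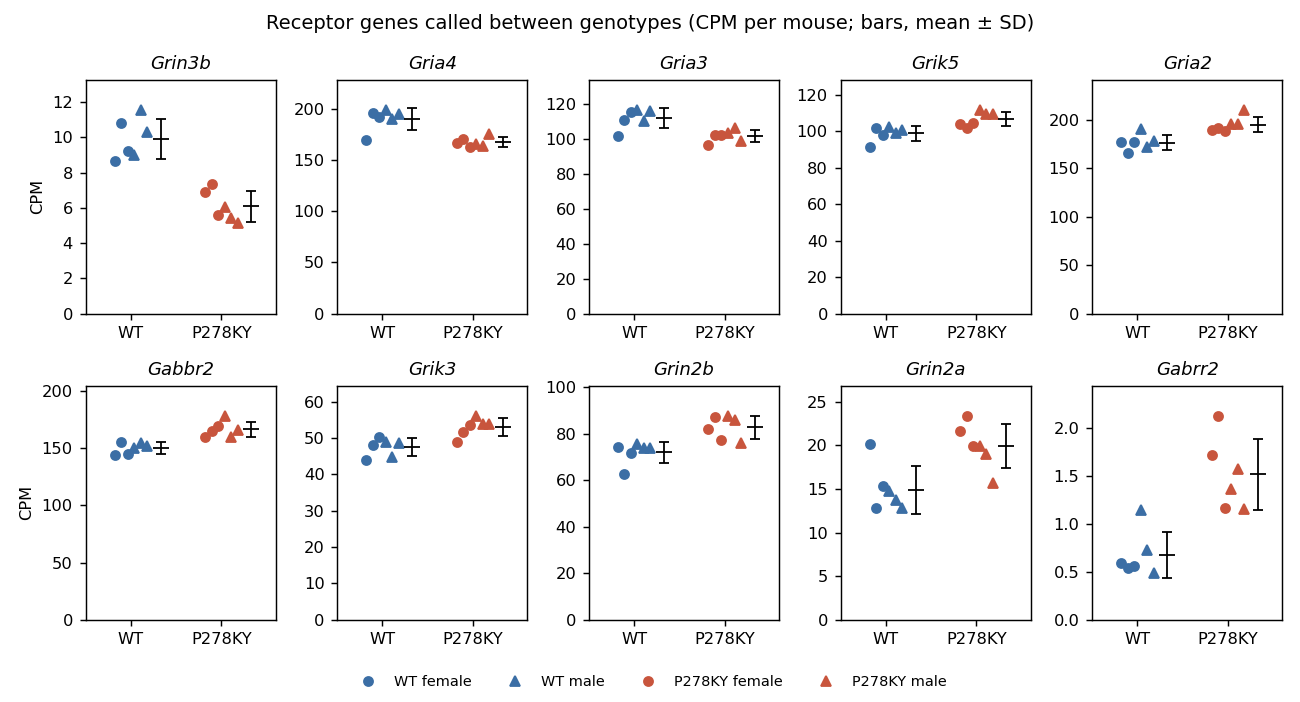
CPM in each mouse for the 10 receptor genes past the threshold, circles for females and triangles for males, with mean and SD of 6 mice per genotype. Grin3b, Gabrr2, Gabbr2 and Grin2b do not overlap between WT and P278KY.

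Kainate receptor genes that passed were both higher in P278KY cord. Grik5 (chromosome 7, 25009849 to 25072346, minus strand), which forms channels only with other kainate subunits, was at 91.5, 99.8 and 102 CPM over the WT mice and at 102, 107 and 111 CPM over the mutants, with a small overlap. The means were 98.8 ± 3.96 and 107 ± 3.91 CPM (log2 change 0.11, SE 0.03, edgeR adjusted p = 0.0391). Grik3 (chromosome 4, 125490700 to 125714173, plus strand), a low-affinity subunit gene, was at 43.9, 48.5 and 50.2 CPM over the WT mice and at 48.9, 53.8 and 56.0 CPM over the mutants. The ranges overlapped slightly, and the means were 47.5 ± 2.51 and 53.0 ± 2.42 CPM (log2 change 0.16, SE 0.04, edgeR adjusted p = 0.0480). These are the 2 calls nearest the threshold. Grik2, a subunit gene of many kainate receptors of the brain, did not pass (log2 change 0.15, SE 0.04, edgeR adjusted p = 0.0798). It passed with the DESeq2 Wald test (adjusted p = 0.0461). Grik1 and Grik4 had log2 changes of 0.06 (SE 0.14) and -0.02 (SE 0.04).

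Among NMDA receptor genes the rare GluN3B subunit fell and 2 GluN2 subunits rose. Grin3b (ENSMUSG00000035745, chromosome 10, 79970715 to 79977190, plus strand), a subunit gene known for its expression in motor neurons, was at 8.63, 10.8 and 9.20 CPM in WT females and 9.02, 11.5 and 10.3 CPM in WT males. P278KY females had 6.87, 7.36 and 5.57 CPM and P278KY males 6.07, 5.43 and 5.14 CPM. Every mutant lay below every WT mouse. The mean was 1.63-fold lower, at 6.07 ± 0.874 CPM in mutants against 9.91 ± 1.14 CPM (log2 change -0.71, SE 0.11, edgeR adjusted p = 0.00199). Motor neuron markers moved the same way, at a median log2 change of -0.59 over 15 genes, and the part of motor neuron RNA in the Grin3b result was not tested. Grin3b shares 1059 exonic bases with Tmem259 on the opposite strand, a gene with 95.1 CPM on average and a log2 change of -0.05 (edgeR adjusted p = 0.412). The strand setting of the counting is not given in the sources used here, so reads of the pair may not be told apart over those bases.

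Grin3a, the larger part of GluN3 transcripts, did not pass, at 72.5 ± 2.27 and 76.8 ± 2.41 CPM (log2 change 0.08, SE 0.03, edgeR adjusted p = 0.132). It passed on log2(TPM + 1) values (log2 change 0.16, limma adjusted p = 0.0333), where the median of all genes was 0.062. Of summed Grin3a and Grin3b TPM, Grin3b made 23.7% to 28.8% in WT and 15.0% to 21.5% in P278KY mice, with no overlap, which again restates the fall of Grin3b.

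Grin2b (ENSMUSG00000030209, chromosome 6, 135713233 to 136173511, minus strand), a subunit gene of slow NMDA receptors that is high in young animals, was at 62.9, 73.7 and 75.6 CPM over the WT mice and at 76.2, 84.1 and 87.5 CPM over the mutants. No CPM values overlapped, but the highest WT and lowest mutant were close. TPM values did overlap, with WT male 11 at 7.86 and P278KY male 8 at 7.42. On log2(TPM + 1) values Grin2b did not pass (log2 change 0.24, limma adjusted p = 0.0662). The mean rose from 71.98 ± 4.61 to 82.7 ± 5.05 CPM (log2 change 0.20, SE 0.05, edgeR adjusted p = 0.0318). Grin2b is on chromosome 6, as Gars is, at the far end of it. On the same chromosome Grm7 and Grm8 did not pass, with log2 changes of 0.10 and 0.08. Grin2a (chromosome 16, 9567898 to 9995560, minus strand), the GluN2 subunit gene of faster receptors, was at 12.8, 14.3 and 20.1 CPM over the WT mice and at 15.7, 19.9 and 23.3 CPM over the mutants. The overlap came from WT female 1, at 20.1 CPM, while the other 5 WT mice lay below all mutants. The means were 14.9 ± 2.75 and 19.9 ± 2.57 CPM (1.33-fold, log2 change 0.42, SE 0.10, edgeR adjusted p = 0.0296).

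The subunit genes with the most NMDA receptor RNA did not pass. Grin1 was at 344 ± 25.2 and 371 ± 14.3 CPM (log2 change 0.11, SE 0.04, edgeR adjusted p = 0.175), and Grin2d, with 52.3% and 51.3% of GluN2 TPM, had a log2 change of 0.05 (SE 0.04). On log2(TPM + 1) values Grin1 passed (log2 change 0.19, limma adjusted p = 0.0366), where the median of all genes was 0.062. Grin1 shares 1307 exonic bases with E130003G02Rik and is uncertain over those bases. Grin2d and Grm2 share 643 and 470 exonic bases with opposite-strand genes not analysed here. Grid1, a delta receptor gene whose product binds cerebellins across the synapse, had a log2 change of 0.03 (SE 0.04).

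For the metabotropic glutamate receptors 6 of 7 log2 changes were above 0 and none passed. Grm5, a group I receptor that couples to calcium release, missed the threshold narrowly, at 86.1, 97.5 and 103 CPM over the WT mice and 99.3, 106 and 120 CPM over the mutants (log2 change 0.16, SE 0.04, edgeR adjusted p = 0.0532). It passed with the DESeq2 Wald test (adjusted p = 0.0135) and on log2(TPM + 1) values (limma adjusted p = 0.00590). On the latter scale its log2 change was 0.26, where the median of all genes was 0.062. Grm2 of group II had 0.25 (SE 0.09, edgeR adjusted p = 0.147) and Grm3, a group II receptor of astrocytes too, 0.06 (SE 0.07). In group III, the presynaptic receptors of release sites, Grm7 had 0.10 (SE 0.05), Grm8 0.08 (SE 0.06) and Grm4 -0.03 (SE 0.05).

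Of the GABA-A genes only that of the rho 2 subunit passed. Gabrr2 (ENSMUSG00000023267, chromosome 4, 33062999 to 33095865, plus strand), which forms slow channels best known from the retina, was scarce in both genotypes. Its counts were 18, 16 and 18 in WT females 1, 2 and 10 and 33, 20 and 13 in WT males 5, 11 and 12. In P278KY mice they were 52, 67 and 34 in females 3, 4 and 9 and 55, 49 and 35 in males 6, 7 and 8. All mutants were above all WT mice in counts and in CPM, but WT male 5, at 1.14 CPM, lay just under the lowest mutant, at 1.16 CPM. The mean was 2.25-fold higher in mutants, at 1.52 ± 0.371 CPM against 0.677 ± 0.243 CPM (log2 change 1.17, SE 0.24, edgeR adjusted p = 0.0135).

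The other 14 GABA-A genes did not pass. The alpha subunit genes Gabra3 and Gabra5 had log2 changes of 0.06 and -0.01 (SE 0.03 and 0.05), and Gabra4 had 0.14 (SE 0.04, edgeR adjusted p = 0.0759) and shares 46 exonic bases with Gabrb1 on the opposite strand. For the beta genes, whose products form the GABA site with the alpha subunits, log2 changes were 0.07 (Gabrb1) and 0.02 (Gabrb2). Gabrg3, a gamma subunit gene, had 0.21 (SE 0.06, edgeR adjusted p = 0.0769) and passed with DESeq2 (0.0375). Gabrq, Gabre and Gabrd, of less common receptors, had 0.14, 0.20 and -0.31 (SE 0.06, 0.10 and 0.27). On log2(TPM + 1) values Gabra4 (log2 change 0.19, limma adjusted p = 0.0389) and Gabrg3 (0.30, 0.0264) passed, where the median of all genes was 0.062.

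Gabra2 varied far more among mice than between genotypes. It was at 58.4 CPM in WT female 1, 60.01 CPM in P278KY female 9, 51.5 CPM in P278KY male 6 and 53.5 CPM in P278KY male 7, against 32.0 to 42.9 CPM in the other 8 mice, with no value between. The genotype difference was 0.03 (SE 0.19, edgeR adjusted p = 0.963). Gabrg1, its neighbour on chromosome 5, had its 4 highest values in the same 4 mice, at 38.3 to 40.0 CPM against 31.5 to 36.0 CPM. Gabra4 and Gabrb1, farther along the same gene cluster, did not follow the split. This grouping of mice was seen in the values and was not tested. The background is mixed, and the genotype of each mouse at this locus is not analysed here.

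**Figure D4:**
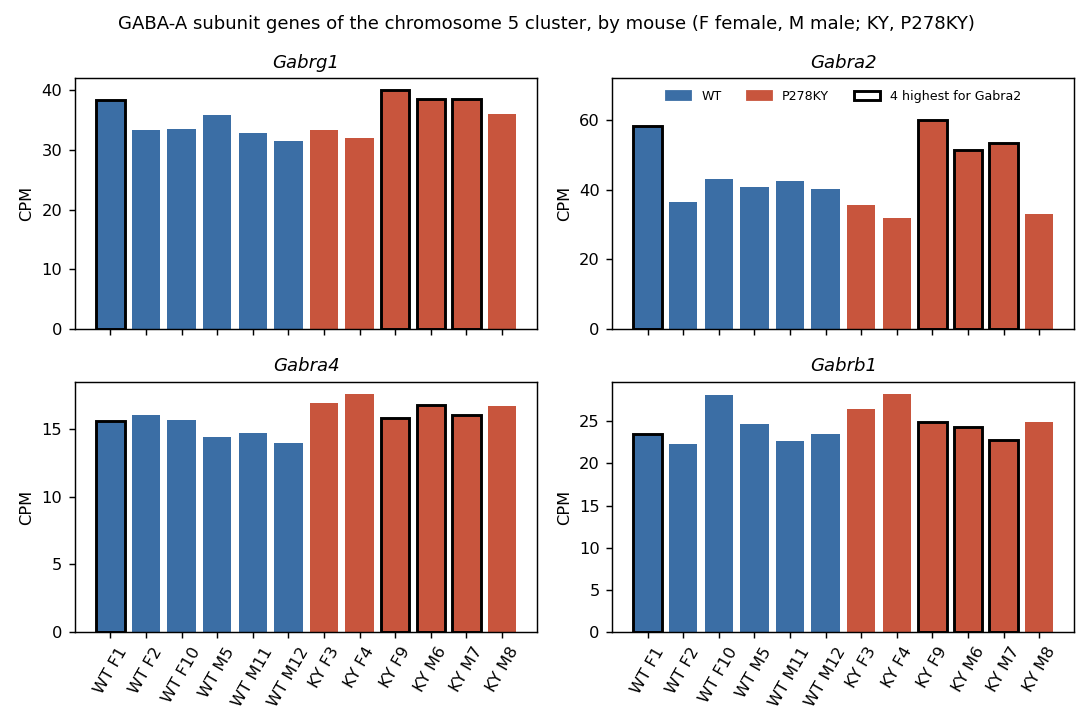
CPM in each of the 12 mice (bars) for the chromosome 5 genes Gabrg1, Gabra2, Gabra4 and Gabrb1, with the 4 mice highest for Gabra2 outlined. The same 4 mice have the highest Gabra2 and Gabrg1 values, both genotypes among them.

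The GABA-B receptor differed by subunit in what passed. Gabbr2 (ENSMUSG00000039809, chromosome 4, 46662305 to 46991873, minus strand) was at 144, 151 and 156 CPM over the WT mice and at 160, 166 and 178 CPM over the mutants, with no overlap. The mean rose from 150 ± 4.93 to 166 ± 6.78 CPM (log2 change 0.15, SE 0.03, edgeR adjusted p = 0.0187). Gabbr1 was at 524 ± 33.7 and 542 ± 15.2 CPM (log2 change 0.05, SE 0.03, edgeR adjusted p = 0.474) and passed, of the settings run, only on TPM values (limma adjusted p = 0.0292 on log2(TPM + 1)). There its log2 change was 0.14, where the median of all genes was 0.062. Whether the 2 changes differ was not tested.

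How firmly these calls stand differed between genes. With 1 mouse left out at a time, Grin3b, Gria4 and Gabrr2 passed in all 12 fits, with an edgeR adjusted p of up to 0.00763, 0.0386 and 0.0365. Gabbr2 missed in 1 fit (without P278KY male 6, 0.0506) and Gria2 in 3 (those without mouse 4, 11 or 12, up to 0.0575). Grin2a and Grin2b missed in 7 fits each, Gria3 in 9, and Grik3 and Grik5 in 10 each, with adjusted p up to 0.0781, 0.0814, 0.0803, 0.112 and 0.0978. Without mice 7, 10 and 11, those with ganglion RNA, 1 call was left, that of Grin3b (edgeR adjusted p = 0.0304), and 1.42% of all genes passed. Without mice 1 to 4, those with the most muscle RNA, 4 of the 42 passed (Grin3b, Gria4, Grin2a and Gria3), against 3.22% of all genes. Leaving out mice 9 to 12, a set earlier seen to have low clock gene levels (values not shown here), left WT male 5 as the lone WT male. The spread was then estimated over all mice left, with no measure of it among WT males. None of the 42 then passed by edgeR, with 0.506% of all genes called and Grin3b at an adjusted p of 0.0863. All 10 genes kept the sign of their change in every one of these fits. The fits reuse most of the mice in which the genes were called, so this is no separate evidence.

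**Figure D5:**
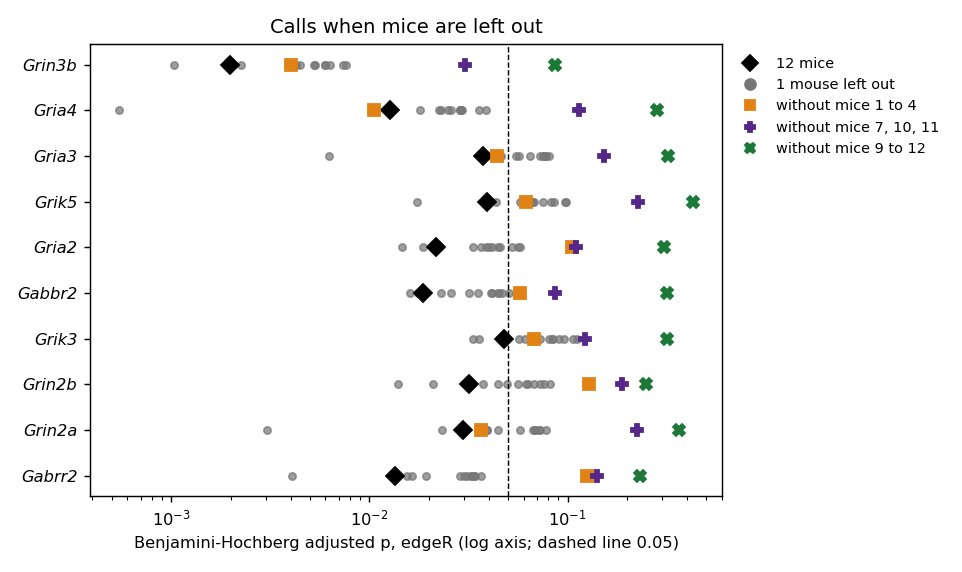
Benjamini-Hochberg adjusted p (log axis) of the 10 called receptor genes with all 12 mice (diamonds), with 1 mouse left out (grey points) and without 3 sets of mice (coloured marks). Grin3b is under 0.05 in all but the fit without mice 9 to 12, and each of the other 9 calls crosses the dashed line in at least 1 fit.

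Between the sexes no receptor gene passed by edgeR (0.089% of all genes) or by DESeq2 (1.16%), and 13 of the 42 had an unadjusted p under 0.05, against 8.95% of all genes. Levels were higher in males for 35 of the 42, against 49.6% of all genes tested, and for 34 of the 42 without WT female 1. Mice 1 to 4, which had the most muscle RNA, are all females, and its part in these values was not tested. Genotype was also compared within each sex. In females none passed by edgeR (0.573% of all genes), 2 passed by DESeq2 (Gabrr2 and Grin3b, 2.55% of all genes) and 15 had an unadjusted p under 0.05 (12.4% of all genes). In males Grin3b passed (log2 change -0.89, SE 0.14, edgeR adjusted p = 0.00805), where 1.55% of all genes did, 12 had an unadjusted p under 0.05 (14.3% of all genes), and DESeq2 called 4 (Grin3b, Gria4, Gria2 and Grm5, 5.5% of all genes). The interaction of genotype and sex was called for no receptor gene by edgeR (0.0% of all genes) or DESeq2 (0.324%), with 2 (Gria1 and Gabra5) at an unadjusted p under 0.05, against 3.7% of all genes. The smallest was that of Gria1, with log2 changes of -0.19 in females and 0.03 in males (difference 0.22, SE 0.09, unadjusted p = 0.0287, edgeR adjusted p = 0.9999).

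Genes whose products work with these receptors were counted from lists of their own, to be read against the 5.32% of all genes called (2.36% higher). Of 14 tested AMPA auxiliary subunit genes 3 rose and none fell. Cacng3, a TARP that carries AMPA receptors to the synapse, rose from 13.3 ± 0.187 to 17.0 ± 0.812 CPM with no overlap and kept its call in all 12 fits with 1 mouse left out (log2 change 0.36, SE 0.04, edgeR adjusted p = 0.000547). Shisa7 (0.20, edgeR adjusted p = 0.0417), which acts on GABA-A receptors as well, and Frrs1l (0.15, 0.0490), an AMPA receptor assembly factor, lost their calls in 9 and 10 of those fits. Grip2, a scaffold that binds GluA2 and GluA3, was the 1 gene called of 18 excitatory scaffold genes. That share is near the 5.32% of all genes called in either direction, and above the 2.36% called higher. Its mean rose from 53.6 to 60.4 CPM with no overlap (log2 change 0.17, edgeR adjusted p = 0.0109). Of 5 glycine receptor genes Glra2, an alpha subunit gene high in the immature cord, rose (0.22, SE 0.05, edgeR adjusted p = 0.0268), a call lost in 7 fits with 1 mouse left out.

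None passed among 8 kainate auxiliary and delta receptor partners, 9 inhibitory postsynaptic partners, 3 GABA-B partners, 3 glutamate release genes, 5 GABA and glycine release genes and 3 RNA editing genes. The vesicular glutamate transporter gene Slc17a6 had a log2 change of 0.08 (SE 0.03), and Gad1 and Gad2, which make GABA, had 0.08 and 0.06 (SE 0.03 each). Adarb1, whose product edits the Gria2 transcript, had 0.04 (SE 0.03). Median log2 changes were 0.08 for AMPA auxiliary subunits, 0.03 for excitatory scaffolds and 0.18 for glycine receptors. For the partner, release and editing genes they ranged from -0.001 (inhibitory postsynaptic partners) to 0.13 (GABA-B partners). Glrb and Glra1, the glycine receptor genes with the most RNA at 274 and 167 CPM, had log2 changes of -0.04 and 0.06 (SE 0.04 each). Among other marker lists 1 of 10 astrocyte genes rose (Slc1a3), 1 of 10 tested ganglion neuron genes rose (P2rx3) and 3 of 10 Schwann cell genes fell (Pmp2, Gldn and Pmp22), and none of the oligodendrocyte (10), precursor (9), microglia (10), muscle (12) or cerebellar granule cell (8) genes passed.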

How the data were processed

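Per the labels' protocols, polyadenylated RNA was sequenced from stranded libraries as pairs of 75-base reads. Per the submitters' processing notes Bowtie2 2.2.0 and RSEM 1.2.12 were used. Genome build, annotation and strand setting were not given in the sources used here. For each mouse the authors deposited 1 table with expected counts, which share reads among genes they match, TPM and FPKM, per the file headers. FPKM entered no test.

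Expected counts were rounded and filtered with filterByExpr of edgeR over the 4 groups, and library totals were scaled with TMM factors, on which CPM is based. The tests were edgeR's quasi-likelihood F tests (R 4.3.3, edgeR 4.0.16) with Benjamini-Hochberg adjustment over 17980 genes. Genotype and sex effects came from an additive model, and effects within a sex and the interaction from 4 group means. SE was computed as |log2 change| divided by the root of F. Alternatives used DESeq2 1.42.0, limma 3.58.1 and other filters, and left out mice. The tests were tried on simulated counts. Most changes called here were smaller than those put into the simulated counts, which held no RNA of neighbouring tissues. The labels number the mice and say nothing of litter or day of collection, and p-values measure the spread between these samples. All 47 genes had a position in GENCODE M21 (build GRCm38).

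Receptor genes named are those past the threshold, those without overlap, the most abundant and the one of smallest p in each class, the 3 of widest range, the 3 of smallest interaction p, and up to 3 called genes in each other list. Some receptor genes enter the counts, sums and medians and are not reported here by name. Further receptor genes are given, and those were named outside that rule, as were the Slc17a6, Gad1, Gad2 and Adarb1 values and the marker genes. The members, the gene lists and the sets of mice left out were chosen with earlier results of these data known.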

Additional observations from a re-analysis of the deposited data

Results flagged for a closer look

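In 7 of the 84 groups of 6 mice (42 genes in each genotype), 1 mouse stood apart from the other 5 by Dixon's criterion. Its nominal rate is about 1 in 20 for independent groups, but here the same mice enter the groups of every gene. The share over all genes was not computed, so whether 7 is more than in other genes is not known. WT female 1, the library with the most muscle RNA, was the mouse in 3 of these 7 groups. Its Gria4 level was 169.3 CPM against 190 to 199 CPM in the other WT mice, its Grin2a level 20.14 CPM against 12.8 to 15.3 CPM, and its Gabra2 level 58.37 CPM against 36.4 to 42.9 CPM. The Gabra2 value belongs to the split of mice described above. P278KY female 9, male 6 and male 7, low in muscle RNA, were at 60.01, 51.5 and 53.5 CPM of Gabra2. WT female 2 and P278KY females 3 and 4, also high in muscle RNA, were at 36.4, 35.7 and 32.0 CPM. WT male 5 had 1.144 CPM of Gabrr2 against 0.490 to 0.732 CPM in the other WT mice, and 46.99 CPM of Grm7 against 38.8 to 39.2 CPM. Without that mouse Grm7 passed between the genotypes (log2 change 0.15, edgeR adjusted p = 0.0238). WT female 2 had 62.89 CPM of Grin2b, below the 71.9 to 75.6 CPM of the other WT mice. P278KY male 8 had 210.1 CPM of Gria2, above the 188 to 196 CPM of the other mutants.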

How the results depend on the processing

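The count of 10 receptor genes between the genotypes was 4 without mice 1 to 4, 1 without mice 7, 10 and 11, and 0 without mice 9 to 12, fits with fewer samples. With 1 mouse left out it ranged from 4 (without P278KY female 4, P278KY male 6 or WT male 12) to 11, with 5 without P278KY male 7 or WT male 11 and 6 without P278KY female 3. The share of all genes called moved too, to 3.08% without P278KY male 6, 3.34% without P278KY female 4 and 3.82% without WT male 12, and to 7.76% without WT female 1, the fit with 11. Other tools, filters and scales gave 7 to 13. Within females the count of 0 became 2 by DESeq2, 1 with at least 1 CPM in at least 6 libraries and 1 on log2(TPM + 0.1), and 0 to 2 with 1 mouse left out. Within males the count of 1 became 4 by DESeq2 and 3 on log2(TPM + 1) and log2(TPM + 0.1), and 1 to 2 with 1 mouse left out. The cause of these moves was not tested beyond the fewer samples of the fits that leave mice out. Counts for sex and for the interaction were 0 in all alternatives run. No called gene changed sign. Raising the minimum mean to 1 TPM kept 41 genes and lowering it to 0.05 TPM kept 45. No paired analysis was possible because the groups share no mouse numbers. Depth limits Gabrr2 and Gabrd most, with under 2 CPM on average.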
